A study of Mus musculus with 4 samples.

Results

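Galectins are secreted or cytosolic lectins that bind β-galactose ends of glycans, and they do so through a conserved carbohydrate recognition domain. On T cells they crosslink glycoproteins such as CD45 and CD7 and set thresholds for signaling and death, and inside cells galectin-3 and galectin-8 gather on vesicles whose membrane has broken. In the small intestine, galectin-2, galectin-3 and galectin-4 are known as products of the epithelium. Galectin-1 and galectin-9 are known from activated lymphocytes, macrophages and stroma, and these sources are not exclusive.

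The galectins described here are Lgals1, Lgals2, Lgals3, Lgals4, Lgals8 and Lgals9, and their members are all probes outside the control spots that carry 1 of these 6 gene names. They are 8 probes of 6 genes, out of 41174 probes and 27376 gene names on each array. The study set CD8αβ+ intraepithelial lymphocytes (IELs) of the small intestine against CD8αβ+ splenocytes (SPLs) by their RNA, to find the genes in which CD8αβ+ T cells of the gut differ from those of the spleen. The groups held 2 samples each, IEL replicates 1 and 2 and SPL replicates 1 and 2, each from pooled mice and each on its own 1-color Agilent array. The mice of both groups were wild-type males, on a C57BL/6 background according to the methods and from 8 to 12 weeks old in the labels. No transgene or knockout was used, and cells were gated as CD45+CD3+CD8α+CD8β+TCRβ+, a gate that does not take epithelial cells, macrophages or B cells.

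Levels are log2 processed intensities relative to the 75th percentile of the same array, so that 0 is the 75th percentile and 1 unit is a 2-fold step. Each probe has its own hybridization, so a probe was compared with itself across arrays and not with another probe. IEL replicate 1 and SPL replicate 2 were on slide 1, and IEL replicate 2 and SPL replicate 1 on slide 2. All 8 galectin probes were well above background on all 4 arrays, none was saturated or marked, and all were among the 27912 probes tested.

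IEL replicate 2 stood apart from IEL replicate 1. Over all tested probes it correlated with SPL replicate 1, its neighbor on slide 2, at 0.992, whereas the 2 IEL arrays correlated at 0.946 and the 2 SPL arrays at 0.986. The median absolute log2 difference was 0.464 between the IEL arrays and 0.169 between IEL replicate 2 and SPL replicate 1. Summed intensities (in multiples of the 75th percentile) of 9 B cell markers were 3.65 and 22.1 on IEL replicates 1 and 2 and 28.5 and 21.6 on SPL replicates 1 and 2. The same sums of 6 red cell markers were 1.16, 75.8, 100 and 117 in that order, so IEL replicate 2 held spleen markers at nearly the level of the spleen arrays. For 8 Paneth cell markers the sums were 433, 10.9, 7.73 and 5.31. Lyz1, at 2.30 and 2.35 on SPL replicates 1 and 2, made up most of the SPL sums. Defa20 was at 0.42 and -4.66 and Mmp7 at -4.58 and -5.53 on these arrays. Ang4 was at -3.34 and -3.08 there. The T cell marker sums were between 850 and 922 on all arrays. Cd8b1, the β chain that the sort selected for, ranged from 7.40 to 8.11, and Cd3e, an invariant T cell receptor subunit, from 2.89 to 3.83. The SPL arrays also differed from each other in markers that were higher in IELs. Sums of intraepithelial T cell markers were 186 and 73.9 and of epithelial markers 3.01 and 1.19 on SPL replicates 1 and 2. Gzmb was at 5.51 and 0.10 on them. Galectin results are therefore given on each slide and also without IEL replicate 2. Leaving out that array does not remove the difference between the SPL arrays.

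Sequences of the probes are shown first, since they set what each value reports. AATAAA, the usual polyadenylation signal, was present in 3 of the 8 galectin probes, against 4.78% of all 41174 probes, a signal that lies near the 3′ end of a transcript. The 30 bases around it are given 5′ to 3′ with the signal in capitals, for Lgals1 (probe at chr15:78760566-78760625, plus strand, mm9), Lgals2 (chr15:78681315-78681374, minus strand) and the brighter Lgals4 probe (chr7:29626658-29626717, plus strand).
Lgals1 A_51_P465281: cctgtagccctcAATAAAggcagctgcctc
Lgals2 A_52_P563375: tttccccaaggtcaaggtcaAATAAAagaa
Lgals4 A_51_P497100: gttccatctaagctcctAATAAAatgttga

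The probes without that signal include some that span an intron. The 60 bases of the Lgals3 probe cover 817 bases of genome (chr14:48004398-48005214, plus strand), and those of the second Lgals4 probe 252 bases (chr7:29625966-29626217, plus strand), so both cross a splice junction and report spliced RNA. The dimmer Lgals8 probe (chr13:12539499-12539558, minus strand) and the second Lgals4 probe share a stretch of 20 bases in which 14 are identical, and these 14 are in capitals. The Lgals3 probe and the Lgals9 probe (chr11:78776964-78777023, minus strand) are in lower case throughout. Over the 6 pairs of these 4 probes that stretch was the longest with mismatches allowed, and the longest unbroken match had 9 bases, between the second Lgals4 probe and the Lgals9 probe.
Lgals4 A_52_P634250: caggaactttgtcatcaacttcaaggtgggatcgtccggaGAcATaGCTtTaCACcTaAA
Lgals8 A_51_P316981: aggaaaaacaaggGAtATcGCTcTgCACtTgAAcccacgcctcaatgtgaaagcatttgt
Lgals3 A_51_P101929: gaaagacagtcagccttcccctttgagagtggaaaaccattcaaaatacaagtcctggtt
Lgals9 A_51_P500813: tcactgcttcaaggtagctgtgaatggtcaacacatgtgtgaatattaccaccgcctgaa

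Lgals2, Lgals3 and Lgals4 had higher means in IELs than in SPLs, whereas Lgals1 and Lgals9 had lower ones with overlapping groups. The direction for Lgals9 depended on the scaling. Under a normexp background correction Lgals1 was at -0.05 relative to the median of all probes. Lgals2 had a 20.5-fold higher mean in IELs, Lgals3 3.92-fold and Lgals4 2.47-fold, and Lgals8 differed by 1.09-fold. Lgals9 was 1.23-fold and Lgals1 1.96-fold lower in IELs. With all 4 arrays, 0 galectins passed the Benjamini-Hochberg threshold of 0.05 in limma, as did 0 of the 27912 probes in either direction (0%), with 0.634 as the lowest adjusted p of any probe. Lgals2 and Lgals3 were higher at an unadjusted limma p under 0.05 and no galectin was lower, against 4.63% and 1.10% of all tested probes. Values of both IEL arrays were above both SPL arrays for Lgals2, Lgals3, Lgals4 and Lgals8, an order that 24.4% of all tested probes had, and the reverse order, held by 24.6% of probes, was found for none of the galectins. An exact permutation test of 2 against 2 arrays cannot go below a two-sided p of 0.333.

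**Figure D1:**
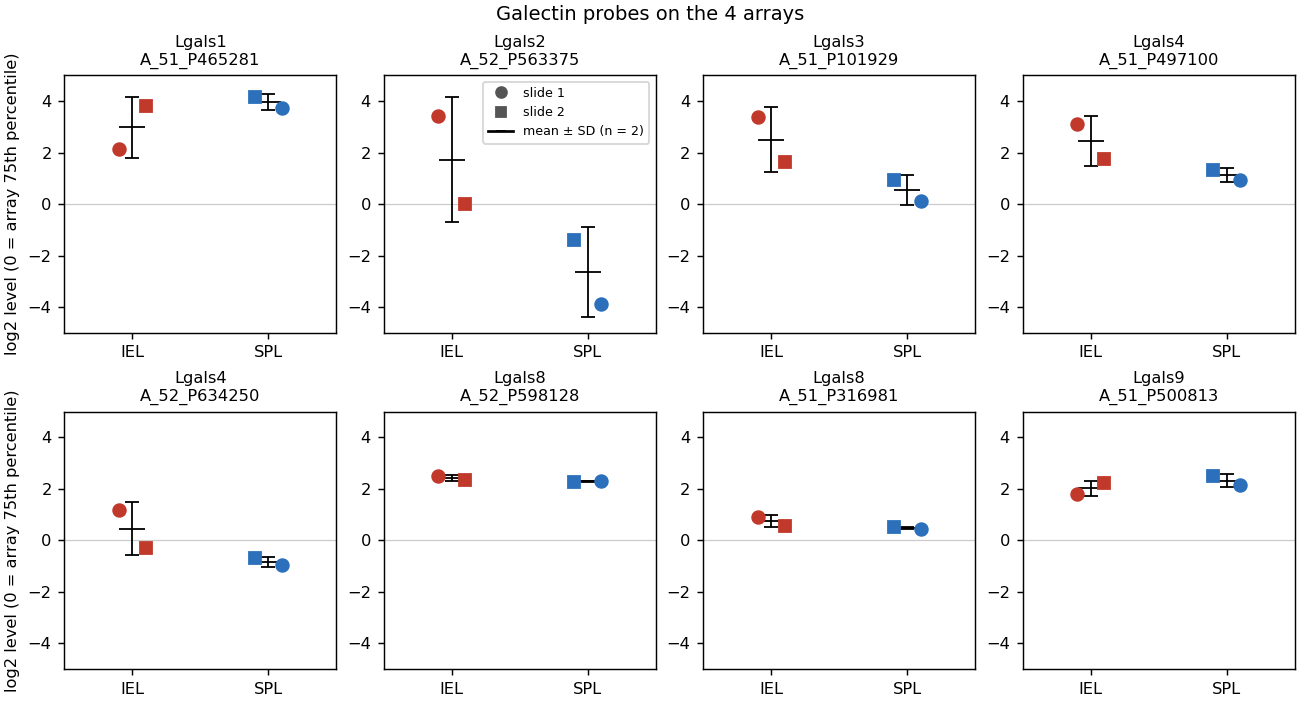
Level of each of the 8 galectin probes (log2, relative to the 75th percentile of the array, vertical axis) in IELs and SPLs, with circles for slide 1, squares for slide 2 and bars for the mean ± SD of 2 arrays. Lgals2, Lgals3 and both Lgals4 probes were highest on IEL replicate 1 and lowest on SPL replicate 2, whereas Lgals1 was lowest on IEL replicate 1.

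Lgals2 encodes galectin-2, a small galectin of gut epithelium. Its processed intensity was 3390 and 439 units on IEL replicates 1 and 2, and 183 and 41.6 units on SPL replicates 1 and 2, which gave levels of 3.44, 0.01, -1.39 and -3.86. IEL replicate 1 was far above the other arrays, SPL replicate 2 was the lowest at 2.52 times its local background, and the groups did not overlap. The mean level was 1.73 ± 2.42 (SD, n = 2) in IELs and -2.63 ± 1.75 (n = 2) in SPLs. The log2 difference was 4.35 (SE 1.45, 95% interval 0.46 to 8.25, limma adjusted p = 0.634), and 0.14% of tested probes had one as high. The gap between the IEL replicates, 3.43 on the log2 scale, was larger than that between IEL replicate 2 and SPL replicate 1, which was 1.41. Within slide 1 the difference was 158-fold and within slide 2 it was 2.65-fold, and Lgals2 alone of the galectins reached 2-fold on each slide, upward as 1.79% of tested probes did (0.312% did so downward). Without IEL replicate 2 it was 6.07 on the log2 scale (limma adjusted p = 0.0221), and without SPL replicate 1 it was 5.59. Without IEL replicate 1 it was 2.64 and without SPL replicate 2 it was 3.12 (limma adjusted p = 0.721 for the former).

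Lgals3 encodes galectin-3, which is made by epithelial cells and macrophages, among other cells, and marks broken vesicles. Its processed intensity was 3270 and 1340 units on the IEL arrays and 929 and 659 units on the SPL arrays, or levels of 3.39, 1.63, 0.95 and 0.13. Both IEL arrays lay above both SPL arrays, with IEL replicate 2 nearer to SPL replicate 1 than to IEL replicate 1. The means were 2.51 ± 1.25 and 0.54 ± 0.59 (SD, n = 2 each), with a log2 difference of 1.97 (SE 0.70, 95% interval 0.09 to 3.84, limma adjusted p = 0.634). It was 9.62-fold on slide 1 and 1.59-fold on slide 2. Without IEL replicate 2 the log2 difference was 2.85 with a limma adjusted p of 0.0162, and without IEL replicate 1 it was 1.09 with one of 0.719.

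Lgals4 encodes galectin-4, which carries a pair of recognition domains and stabilizes glycolipid rafts at the brush border. On the brighter probe the intensity was 2730 and 1470 units in IELs and 1200 and 1170 units in SPLs, or levels of 3.13, 1.76, 1.33 and 0.95. IEL replicate 1 stood above the other 3 arrays, and the groups did not overlap. The means were 2.44 ± 0.97 and 1.14 ± 0.27 (SD, n = 2 each), and the log2 difference was 1.30 (SE 0.53, 95% interval -0.13 to 2.73, limma adjusted p = 0.634). The second probe, which crosses a splice junction upstream of the first, had intensities of 708, 357, 295 and 308 units. Its log2 difference was 1.29 (SE 0.55), close to that of the brighter probe on the same arrays. Slide 1 gave 4.52-fold and slide 2 gave 1.34-fold on the brighter probe, and 4.45-fold and 1.33-fold on the other. Without IEL replicate 2 the log2 difference was 1.99 (limma adjusted p = 0.0158), and without IEL replicate 1 it was 0.61 (limma adjusted p = 0.757).

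Lgals8 encodes galectin-8, which detects glycans exposed inside damaged vesicles and recruits the autophagy receptor NDP52. Levels on its brighter probe (chr13:12531935-12531994, minus strand) were 2.50 and 2.32 on the IEL arrays and 2.27 and 2.31 on the SPL arrays, a range that was small beside that of Lgals2. The log2 difference was 0.13 (SE 0.23, 95% interval -0.50 to 0.75, limma adjusted p = 0.83), and it was 0.20 on slide 1 and 0.06 on slide 2. On the second probe, levels were 0.90, 0.57, 0.50 and 0.45, with a log2 difference of 0.26 (SE 0.25, 95% interval -0.41 to 0.93). Neither interval reaches a 2-fold change. On the brighter probe the difference was 0.22 without IEL replicate 2 (limma adjusted p = 0.557), and without IEL replicate 1 it was 0.04.

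Lgals9 encodes galectin-9, a ligand of TIM-3 that is known to induce death of effector T cells. Its intensity was 1100 and 2010 units in IELs and 2680 and 2660 units in SPLs, or levels of 1.82, 2.21, 2.48 and 2.14. The groups overlapped, since IEL replicate 2 was above SPL replicate 2. The log2 difference was -0.30 (SE 0.29, 95% interval -1.07 to 0.47, limma adjusted p = 0.693). The slides gave similar values, -0.32 for the first and -0.27 for the second. It was -0.50 without IEL replicate 2, and without SPL replicate 1 it was -0.12. Under a normexp background correction Lgals9 was at 0.28 relative to the median of all probes, so its direction depended on the scaling.

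Lgals1 encodes galectin-1, which activated T cells, macrophages and stroma make and which crosslinks CD45, CD43 and CD7. Intensities were 1370 and 6160 units in IELs and 8640 and 8060 units in SPLs, or levels of 2.14, 3.82, 4.17 and 3.74. IEL replicate 1 was the low array, whereas IEL replicate 2 was above SPL replicate 2, so the groups overlapped. The means were 2.98 ± 1.19 and 3.95 ± 0.31 (SD, n = 2 each), and the log2 difference was -0.97 (SE 0.63, 95% interval -2.67 to 0.72, limma adjusted p = 0.634). Lgals1 was 3.03-fold lower on slide 1 and 1.27-fold lower on slide 2. Without IEL replicate 2 the log2 difference was -1.82 (limma adjusted p = 0.0208), and without IEL replicate 1 it was -0.13.

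Calls made without IEL replicate 2 rest on 1 IEL array, which is assumed to vary like the SPL arrays. In that fit Lgals2, Lgals3 and Lgals4 passed the threshold upward, beside 8.54% of all tested probes, and Lgals1 passed it downward, beside 11.0%. In bulk RNA, fewer cells of a type and less RNA per cell cannot be told apart.

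**Figure D2:**
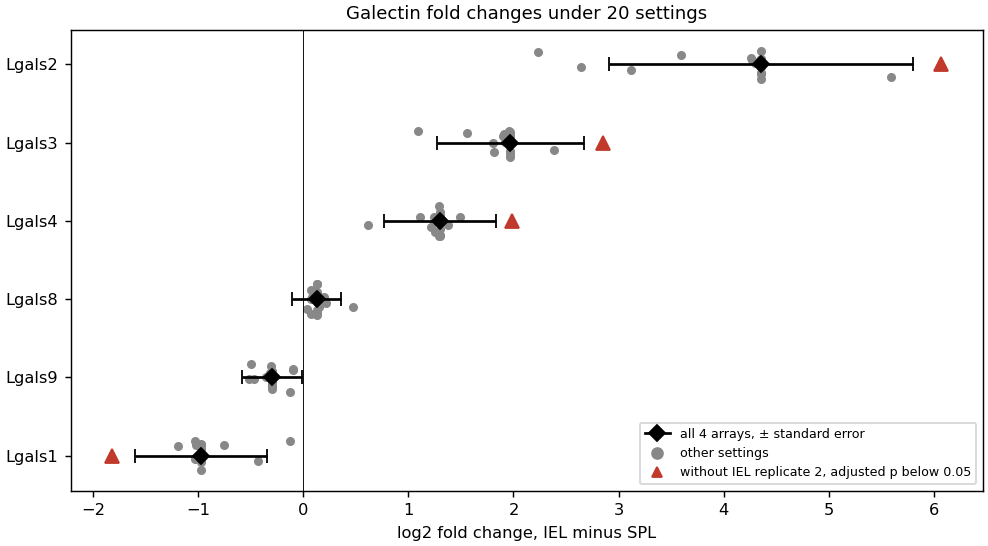
Log2 difference between IELs and SPLs of each galectin (horizontal axis) with all 4 arrays (diamond, ± standard error), under the other settings (grey points) and without IEL replicate 2 where limma's adjusted p was below 0.05 (red triangle). Signs were the same under all settings before any shift of the other probes is taken off, and Lgals2 ranged from 2.23 to 6.07.

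**Figure D3:**
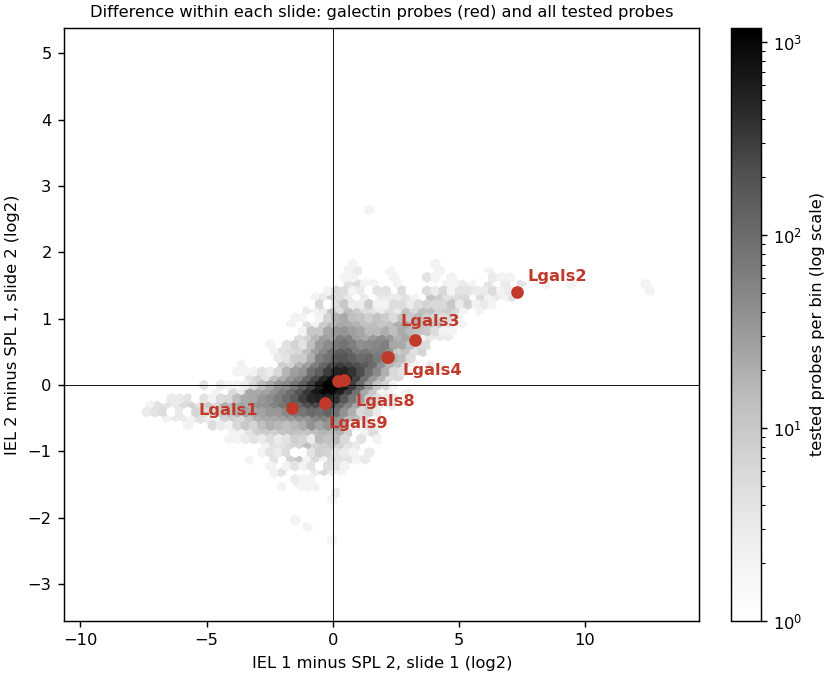
IEL minus SPL difference on slide 1 (log2, horizontal axis) and on slide 2 (log2, vertical axis) for the 8 galectin probes (red) and for all 27912 tested probes (grey bins, darker with more probes on a log scale). Lgals2 is far to the right at 7.30 and 1.41, Lgals3 and Lgals4 lie between it and the origin, and Lgals1 lies to the left at -1.60 and -0.35.

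The 6 galectins had the same sign on both slides, each smaller on slide 2. For 5 of the 8 probes (Lgals2, Lgals3, both of Lgals4 and the dimmer one of Lgals8) the arrays stood in the order IEL replicate 1, IEL replicate 2, SPL replicate 1, SPL replicate 2, as did 13.8% of tested probes. The median log2 difference of the 6 galectins was 0.71, against -0.0007 over all tested probes. When each gene was centered on its own mean of 4 arrays, the galectin profiles most alike were those of Lgals8 and Lgals9 (root mean square difference 0.32) and of Lgals3 and Lgals4 (0.40). Lgals1 and Lgals2 were the furthest apart, at 3.30.

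By the same measure, over 4 arrays and 18179 genes, the genes most like Lgals2 were Degs2, a sphingolipid hydroxylase (0.048), Krt8, a keratin of simple epithelium (0.097), and Tff3, the trefoil peptide of goblet cells (0.12). Only 4 genes were within 0.2 of Lgals2. Lgals3 was closest to Lzts1, NAP102794-1 and Dok4, with 58 genes within 0.2, and Lgals4 to Chrne, Nktr and Asap2, with 239. Lgals1 was closest to Zbtb32, Dscam and Ifi30, the lysosomal thiol reductase of antigen-presenting cells, with 315 genes within 0.2. Lgals8 and Lgals9 had 5578 and 2895 genes within 0.2, the first being Ccndbp1 and Gnal, so their profiles singled out no small group.

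Markers of other cells moved with the galectins. Of 20 epithelial markers 18 were tested (Cdh17 and Elf3 were not), 17 were higher in IELs, 16 had both IEL arrays above both SPL arrays (24.4% of all tested probes did), and the median log2 difference was 2.38. Over the 16 that were well above background on all 4 arrays the median was 2.12. Under a normexp background correction the median of all 18 tested epithelial markers was -0.17, where the median of all probes was -0.38. The epithelial sums were 28.2 and 6.33 on the IEL arrays and 3.01 and 1.19 on the SPL arrays, the order of Lgals2, Lgals3 and Lgals4. Krt8 differed by 4.42, Cdh1, the adhesion protein E-cadherin, by 3.96 and Krt20 by 3.93 on the log2 scale, and Epcam and Vil1, which mark epithelial cells and their brush border, by 1.60 and 2.63. Krt20 and Apoa1 were well above background on 3 of the 4 arrays and the other 16 tested markers on all of them. The part of epithelial RNA in the galectin differences was not tested.

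**Figure D4:**
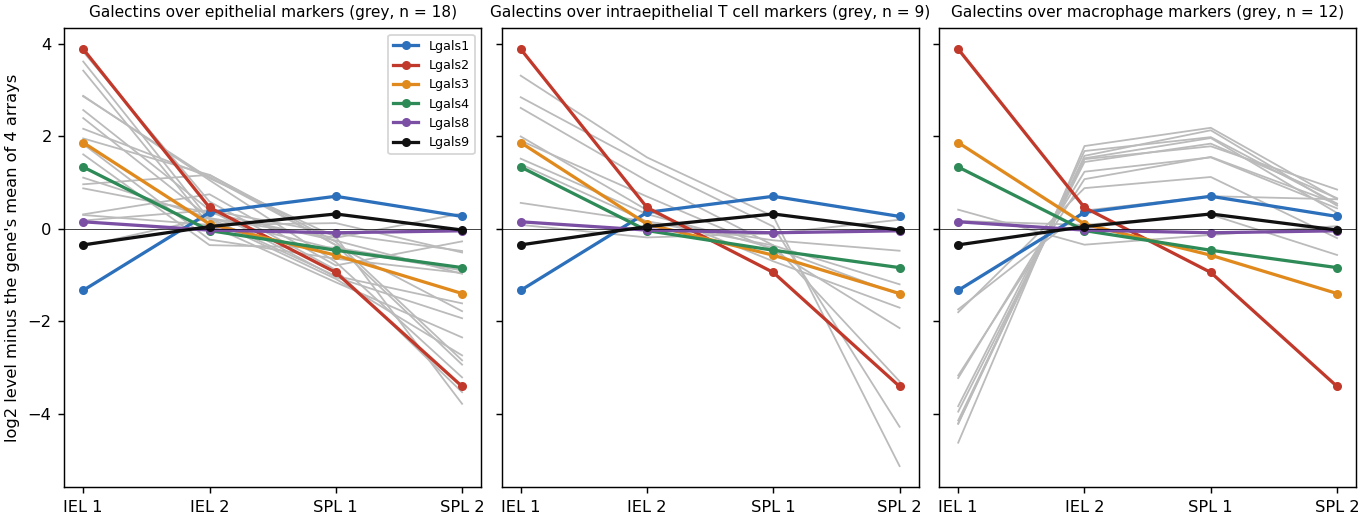
Levels of the 6 galectins (colored lines, log2, each minus its own mean of the 4 arrays) on each array, over epithelial, intraepithelial T cell and macrophage markers (grey lines). Lgals2, Lgals3 and Lgals4 descend from IEL replicate 1 to SPL replicate 2 with most epithelial and intraepithelial T cell markers, whereas Lgals1 is low on IEL replicate 1 with most macrophage markers.

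Markers of intraepithelial T cells took the same order as the epithelial ones. Of 9 tested, 8 had both IEL arrays above both SPL arrays (24.4% of all tested probes did). Sums over the 9 were 1020, 372, 186 and 73.9 on IEL replicates 1 and 2 and SPL replicates 1 and 2. Gzmb and Gzma, the granzymes of cytotoxic granules, differed by 4.86 and 4.23 and Cd244, a signaling receptor of killer cells, by 3.66 on the log2 scale. That order of arrays, held by 13.8% of all tested probes, was thus taken by genes of cytotoxic T cells as well as by epithelial genes.

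Macrophages and B cells are known to make Lgals1, Lgals3 or Lgals9, and most of their markers were lowest on IEL replicate 1. Of 12 tested macrophage markers 10 had a lower mean in IELs, but 1 had both IEL arrays below both SPL arrays (24.6% of all tested probes did). The median log2 difference was -2.21, but -1.35 over the 7 that were well above background on all 4 arrays, and it turned to 0.23 without IEL replicate 1. Sums without Lyz2, the brightest, were 1.11 and 11.4 on the IEL arrays and 14.7 and 6.16 on the SPL arrays. C1qa, a complement subunit of tissue macrophages, was at -5.54 and 0.36 on the IEL arrays and 0.66 and -0.78 on the SPL arrays, with IEL replicate 2 above SPL replicate 2 as for Lgals1 and Lgals9. Vcam1, Spic and C1qc had the largest macrophage differences, at -2.84, -2.64 and -2.64. C1qa, Vcam1 and Spic were well above background on 3 arrays and C1qc on all 4. All 9 B cell markers were lower in the IEL mean (median -2.22), most of all Ms4a1, Cr2 and Fcer2a, which were well above background on 3 arrays, and among them Cd79a, a subunit of the B cell receptor, at -3.73 and -1.96 against -1.52 and -2.17. The B cell median was -1.13 over the 5 markers well above background on all 4 arrays and -0.21 without IEL replicate 1. The part of these cells in the Lgals1 and Lgals9 values was not tested.

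Further marker lists are given for scale, and several of their members were not well above background on all 4 arrays. Of 8 tested Paneth cell markers, led by Defa21, Defa22 and Defa20, 5 were well above background on all 4 arrays, with a median log2 difference of 3.57 (6.50 over all 8). Of 7 goblet cell markers, led by Spink4, Fcgbp and Tff3, 6 were so, with a median of 4.17. Of 6 neutrophil markers, led by S100a8, S100a9 and Ltf, 2 were so, with a median of -2.85 (-3.83 over all 6). Of 6 red cell markers, led by Hba-a1, Hbb-b1 and Ahsp, 3 were so, with a median of -3.60. Without IEL replicate 1 the medians of the tested neutrophil and red cell markers were -0.51 and -0.38. Over 12 general T cell markers, where Cd2, Cd247 and Cd3g differed most, the median was 0.14.

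Relatives of the galectins outside the 6 genes were mixed. Of 8 listed, 6 had a probe and 4 were tested. Lgalsl, which encodes the galectin-like protein without a known lectin activity, had levels of 1.34 and 0.22 on the IEL arrays and -0.83 and -1.73 on the SPL arrays, a 4.17-fold higher mean in IELs that was 3.07 on slide 1 and 1.06 on slide 2 on the log2 scale. Lgals6, a copy of Lgals4 that only some mouse strains carry, had a probe that the array annotation places nowhere on mm9, with levels of -0.24, -2.13, -2.19 and -2.34. Only IEL replicate 1 stood out, and a part of Lgals4 RNA in that value was not tested. Lgals3bp, the secreted ligand of galectin-3, was at 3.12, 3.98, 4.11 and 3.81 with a log2 difference of -0.41 and overlapping groups, like Lgals1. Grifin, a lens galectin, differed by 0.53 with overlap, Lgals7 was well above background on IEL replicate 1 alone, and Lgals12 was so on no array.

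**Figure D5:**
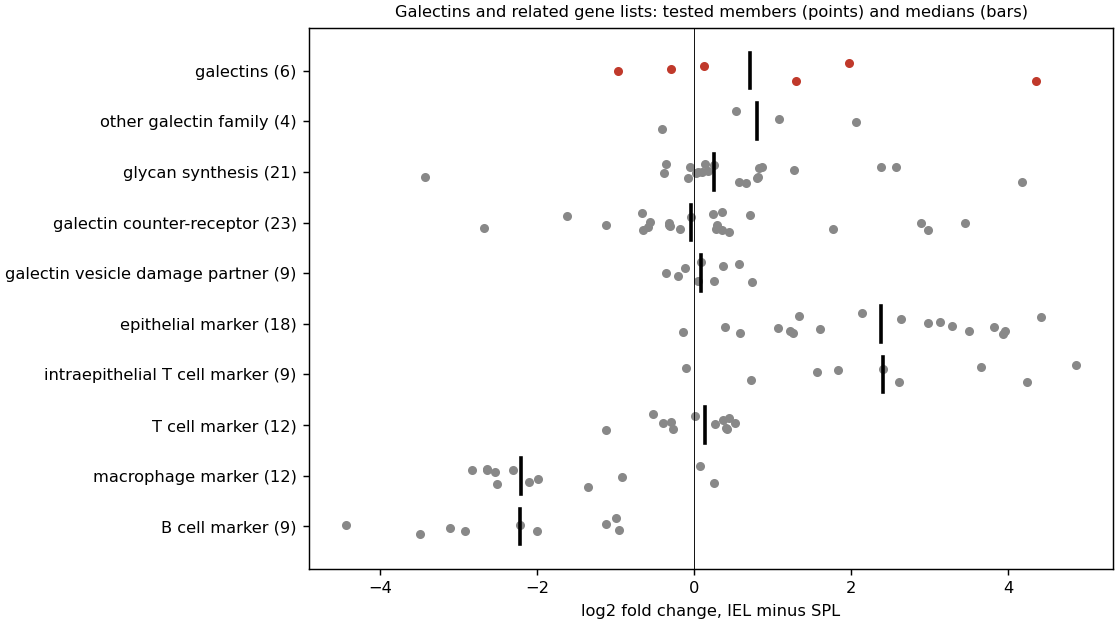
Log2 difference between IELs and SPLs (horizontal axis) of the tested members of each gene list (points, number tested in brackets) with the median as a bar; galectins are in red. The galectins spread from -0.97 to 4.35, and the epithelial and intraepithelial T cell lists have medians of 2.38 and 2.41.

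Galectins bind glycans whose branches and caps are built by glycosyltransferases. Of 22 listed enzymes 21 were tested, 12 had both IEL arrays above and 2 both below, against 24.4% and 24.6% of all tested probes, and the median log2 difference was 0.25. Gcnt2, which makes branched polylactosamine (the I antigen), was at 3.66 and 1.85 on the IEL arrays and 0.47 and -3.30 on the SPL arrays, an 18.1-fold higher mean in IELs. St6gal1, whose α2,6-sialic acid caps block binding of galectin-1, was at -4.53 and 1.33 on the IEL arrays and 1.75 and 1.90 on the SPL arrays, a log2 difference of -3.42. Only IEL replicate 1 was low, and the log2 difference was -6.43 within slide 1 but -0.42 within slide 2 (limma adjusted p = 0.00262 without IEL replicate 2). St6gal1 is also highly expressed in B cells. B4galt4, a galactosyltransferase, was 5.95-fold higher in the IEL mean, at 0.69, -0.70, -1.72 and -3.43. Mgat5, which makes the tetra-antennary branches that galectin-3 binds best, differed by -0.05, with 0.31 and 0.37 in IELs and 0.26 and 0.51 in SPLs. Without IEL replicate 2, 4 of the enzymes passed the threshold upward and 1 downward, against 8.54% and 11.0% of all tested probes.

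Of the glycoproteins described as bound by galectins 23 were tested, and 9 had both IEL arrays above and 8 both below, against 24.4% and 24.6% of all tested probes, with a median log2 difference of -0.04. In the fit without IEL replicate 2, 2 passed upward and 5 downward, against 8.54% and 11.0% of all tested probes. The 3 inhibitory receptors Lag3, Pdcd1 and Havcr2 were the highest, and they shared the order of arrays of Lgals2. Lag3, bound by galectin-3, was at 2.22 and 0.58 on the IEL arrays and -0.58 and -3.54 on the SPL arrays (log2 difference 3.46). Pdcd1, which encodes PD-1, differed by 2.98. Havcr2, which encodes TIM-3 and is bound by galectin-9, was at 1.57, -0.34, -1.49 and -3.05, a 7.41-fold higher mean in IELs that was 4.62 on slide 1 and 1.16 on slide 2 on the log2 scale.

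All 9 partners of galectin-3 and galectin-8 at damaged vesicles were tested. Both IEL arrays were above for 2 and below for none, against 24.4% and 24.6% of all tested probes, and the median log2 difference was 0.08. Sqstm1, the autophagy receptor p62, differed by 0.73, with 6.36 and 5.17 in IELs and 4.98 and 5.08 in SPLs, and only IEL replicate 1 stood above the rest. Calcoco2, which encodes NDP52, differed by 0.57 with a larger difference on slide 2 (0.73) than on slide 1 (0.42). Trim16, which binds galectin-3, differed by 0.36 with overlapping groups.

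Promoters are shown for Lgals2, Lgals3 and Lgals4, which took the array order of most epithelial and intraepithelial T cell markers. They are the 110 bases before the RefSeq start on the strand of the gene (GRCm38.p6). These lie at chr15:78855530-78855639 for Lgals2, chr14:47373750-47373859 for Lgals3 and chr7:28833684-28833793 for Lgals4. Capitals mark motifs that were searched on both strands, in the 250 bases before the start of 32851 genes. The Lgals2 promoter held a motif of GATA factors that 9.99% of promoters hold, with the letters AGATAA. It also held TTTATG, a motif of CDX factors found in 10.8% of promoters. The HNF1 motif GTTAAT, present in 6.43% of promoters, was there as well. CAAAGTCC, an HNF4 motif that was added to the search after this promoter was read, is present in 1.20% of promoters. The Lgals3 promoter held GGGCGG (SP1, 32.7%) on the opposite strand, and none of the motifs searched was in that of Lgals4. TATAAA (12.4%) and TGANTCA (AP-1, 6.75%) were in none of the 5 galectin promoters with an entry. A match describes the letters and not a bound site.
Lgals2: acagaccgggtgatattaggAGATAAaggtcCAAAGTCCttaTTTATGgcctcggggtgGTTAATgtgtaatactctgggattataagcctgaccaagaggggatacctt
Lgals3: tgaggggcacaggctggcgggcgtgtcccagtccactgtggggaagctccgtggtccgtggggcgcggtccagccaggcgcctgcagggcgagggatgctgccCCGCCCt
Lgals4: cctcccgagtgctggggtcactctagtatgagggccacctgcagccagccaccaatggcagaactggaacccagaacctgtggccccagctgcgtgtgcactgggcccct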

How the data were processed

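Total RNA was labeled with 1 dye and hybridized to 4 Agilent whole mouse genome arrays. Per the file headers, Feature Extraction 10.7.3.1 made the spot intensities (10.7.1.1 in the submitters' processing notes), subtracted background within each array and did not normalize between arrays. A table of log2 values that the authors deposited served as an alternative. The methods name PrimeView chips, whereas the files are Agilent's. Positions are mm9, and 8 of 8 galectin probes matched RefSeq by accession.

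The log2 processed intensity minus the 75th percentile of the array was used, leaving out marked spots. Tested were probes measured on all 4 arrays that were well above background throughout 1 group or both (25 with a missing array were dropped). IELs and SPLs were compared by limma (3.58.1, R 4.3.3), two-sided and without a block, with Benjamini-Hochberg adjustment over all tested probes. P-values measure only the spread between these samples, whose number limits the precision. The model was run on simulated arrays. Calling of the changes put in was checked only at a spread below that of these arrays. Replicate numbers did not pair the samples (correlation of deviations -0.025).

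The members and lists were chosen with earlier results of these data known. All probes of the 6 galectins are named, and a gene is represented by its brightest tested probe. Of each other list the 3 members with the largest absolute difference are named, plus Epcam, Vil1, Cd8b1, Cd3e, Cd79a, C1qa, Havcr2, Mgat5, St6gal1 and Lgals3bp. For likeness, the 3 closest genes are named. Alternatives changed the scaling, background correction, filter, test, block, threshold, probe summary and samples. The other experiments of the study were not analysed here. The list of spleen T cell markers is not reported here.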

Additional observations from a re-analysis of the deposited data

How the results depend on the processing

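Over 6 galectins and 19 alternative settings, 110 of 114 log2 differences kept their sign and their side of the threshold, 4 passed it with the same sign and 0 reversed. The 4 came without IEL replicate 2, at -1.82 for Lgals1, 6.07 for Lgals2, 2.85 for Lgals3 and 1.99 for Lgals4. That setting called 2384 probes higher and 3059 lower, against 0 and 0 under every other setting. The methods' t-test gave 470 probes higher and 349 lower at an unadjusted p under 0.05 and 0 after adjustment. When each array was left out in turn, Lgals1 ranged from -1.82 to -0.13, Lgals2 from 2.64 to 6.07, Lgals3 from 1.09 to 2.85, Lgals4 from 0.61 to 1.99, Lgals8 from 0.04 to 0.22 and Lgals9 from -0.50 to -0.10, and calls from 0 to 2384 higher and 0 to 3059 lower. Without IEL replicate 1, Lgals2 was at 2.64. The replicate number as a block changed no call (limma adjusted p = 0.205 for Lgals2, 0 probes called). It changed the SE of Lgals2 from 1.45 to 0.40 and that of Lgals8 from 0.23 to 0.33. The first normexp correction moved the median of all probes to -0.38 and the second, fitted without spots far below background, to 0.15. Relative to those medians, Lgals8 was at 0.85 and -0.07 and Lgals9 at 0.28 and -0.67, so their directions depend on the scaling. Lgals1 was at -0.05 and -1.12, and Lgals2 at 2.61 and 3.44. List medians moved by more than the replicate spread in 31 of 285 cases, with a turn of sign under the first normexp correction for the epithelial (-0.17), vesicle damage (-0.05) and other galectin family (-0.08) lists. Without IEL replicate 1 the macrophage median turned to 0.23 and the vesicle damage median to -0.05, and the B cell, red cell and neutrophil medians were -0.21, -0.38 and -0.51. The cause was not tested. Signal limits Lgals2 on SPL replicate 2, at 2.52 times local background.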
